A study of Mus musculus with 2 samples.

Results

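The kinesins are a family of motor proteins that use ATP to move along microtubules or to take microtubules apart. Their messenger RNAs were measured by RNA sequencing in the mouse mammary carcinoma line 4T1, with cells grown alone (control) or for 3 days in a transwell beside M2 macrophages. Members were the protein-coding genes whose GENCODE M21 symbol begins with Kif followed by a digit or the letter c. They numbered 43 among 21793 protein-coding genes in a table of 52796 rows. Of these, 13 were set as mitotic kinesins, 15 as transport kinesins and 14 as other kinesins. The remaining member, Kif1bp, matched by name but encodes a kinesin-binding protein without a motor domain.

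The design had 1 library per group and 2 libraries in all. The control library came from 4T1 cells labelled as control, and the sources used here do not say whether they sat beneath an empty upper chamber. The co-culture library came from 4T1 cells kept in the lower chamber while M2 (alternatively activated) macrophages occupied the upper chamber. The label title of that library reads 4T2, while its treatment label and its table column read 4T1. The comparison addresses how transcript levels of the tumour cells differ beside such macrophages. Because each group is a single library, differences are given without a test or an error and hold for these libraries only.

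Values are TPM, a transcript abundance divided by transcript length and scaled to a fixed total per library, so levels can be compared between genes. TPM keeps no depth, so the counting error of each value is unknown. A member counted as detected at a mean TPM of at least 1 over both libraries. The log2 ratio was log2((co-culture TPM + 1)/(control TPM + 1)), which understates the difference of genes with low values. Over the 10367 detected protein-coding genes the median log2 ratio was 0.17 and the 25th and 75th percentiles were -0.13 and 0.48. Of these genes 65.3% had a positive ratio, so a positive ratio alone does not set a member apart. In bulk RNA a larger share of dividing cells and more transcript per cell cannot be told apart. Krt8 and Krt18, keratins of simple epithelia, were abundant in both libraries, at 548 TPM and 630 TPM for Krt8, and Vim, an intermediate filament gene of mesenchymal cells, was at 4590 TPM and 4066 TPM. Of the other 3 markers listed for these cells none was detected, with Epcam at 0 in both libraries, Cdh1 at 0.04 TPM and 0.01 TPM and Krt14 at 0.23 TPM and 0.32 TPM. Of 12 macrophage markers 2 were detected, Cd68 and Cd14, and 6 were listed at 0 in both libraries, among them Adgre1, Ptprc, Itgam and Tyrobp. Cd68 had 57.7 TPM alone and 27.8 TPM in co-culture, while Cd14 had 8.87 TPM and 12.4 TPM. Of the undetected markers, Aif1 (0 and 0.27 TPM), Lyz2 (0 and 0.04 TPM) and Mrc1 (0.05 and 0.08 TPM) were higher. Csf1r (0.03 and 0.01 TPM) was lower. The summed level of the 12 markers was 66.7 TPM alone and 40.6 TPM in co-culture, a fall carried by Cd68. Of 5 fibroblast markers Pdgfra alone was detected, at 5.60 TPM and 10.2 TPM, and the summed level of that list was 5.81 TPM and 10.7 TPM.

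Mitotic kinesins are expressed mainly in G2 and M phase, when they build the bipolar spindle, move chromosomes, trim microtubule ends and organise the central spindle that guides cytokinesis. Transport kinesins carry vesicles, mitochondria and protein complexes through the cytoplasm and along cilia, and are present through the whole cell cycle and in cells that no longer divide. Many genes of the G2 and M phases carry near their transcription start a short element called the cell cycle genes homology region (CHR), bound by MuvB complexes that repress them in resting cells and activate them before mitosis. CCAAT boxes, bound by NF-Y, often lie a short way upstream of it.

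Promoter sequences are shown first because they were not used to choose the classes. RefSeq windows of 300 bases (build GRCm38.p6), from 250 bases before to 50 after an annotated start, were available for 12 of the 13 mitotic and 10 of the 15 transport kinesins. The CHR hexamer TTTGAA was searched on both strands. Other forms of the element were not searched, so a window without a match may still hold a variant. At least 1 match lay in the windows of 11 of 12 mitotic kinesins and in those of 1 of 10 transport kinesins, namely in 1 of the windows of Kif1a, a gene listed at 0 in both libraries. For comparison, 20.2% of all 27025 genes with a window and 13.9% of the 8244 detected protein-coding genes with one held the hexamer. Matches that lay wholly within 30 bases of the start, a limit set after the matches were seen, were found for 8 of 12 mitotic and 0 of 10 transport kinesins, against 2.34% of detected protein-coding genes. The 8 mitotic windows with a match near the start follow, from 60 bases before the start through the first 25 transcribed bases, each read 5′ to 3′ on the strand of its gene. Capitals mark the hexamer, which reads TTCAAA where it lies on the opposite strand.
Kif11 (chr19:37376322-37376406, + strand): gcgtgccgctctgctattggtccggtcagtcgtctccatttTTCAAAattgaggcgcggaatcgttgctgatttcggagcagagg
Kif15 (chr9:122951021-122951105, + strand): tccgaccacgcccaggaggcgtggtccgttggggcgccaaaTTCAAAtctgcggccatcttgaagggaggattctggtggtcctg
Kif22 (chr7:127042396-127042480, - strand): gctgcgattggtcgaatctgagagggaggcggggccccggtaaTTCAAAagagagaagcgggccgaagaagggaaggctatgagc
Kif23 (chr9:61946775-61946859, - strand): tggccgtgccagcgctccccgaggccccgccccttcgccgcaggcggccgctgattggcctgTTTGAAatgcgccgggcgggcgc
Kif18b (chr11:102925100-102925184, - strand): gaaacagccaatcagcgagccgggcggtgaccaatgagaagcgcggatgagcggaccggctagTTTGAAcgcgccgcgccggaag
Kifc1 (chr17:33890609-33890693, - strand): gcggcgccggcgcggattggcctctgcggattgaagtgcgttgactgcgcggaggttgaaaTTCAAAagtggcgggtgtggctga
Kif20b (chr19:34922298-34922382, + strand): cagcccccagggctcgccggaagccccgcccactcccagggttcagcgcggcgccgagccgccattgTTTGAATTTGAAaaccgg
Kif4 (chrX:100626005-100626089, + strand): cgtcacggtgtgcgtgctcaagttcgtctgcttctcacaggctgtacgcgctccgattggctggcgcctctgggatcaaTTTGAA

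The matches of Kif11 and Kif15 began at the same distance, 19 bases before the start, both on the opposite strand. Kif20b held a tandem pair of hexamers, beginning 7 and 13 bases after the start. Kif18a was the mitotic kinesin whose window held no match, and it is set here beside a pair of transport kinesins without one, all over the same stretch.
Kif18a (chr2:109280678-109280762, + strand): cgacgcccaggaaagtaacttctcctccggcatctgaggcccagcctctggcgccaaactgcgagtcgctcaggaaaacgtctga
Kif3a (chr11:53567309-53567393, + strand): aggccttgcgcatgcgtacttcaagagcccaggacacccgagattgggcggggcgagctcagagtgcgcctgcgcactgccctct
Kif1c (chr11:70700488-70700572, + strand): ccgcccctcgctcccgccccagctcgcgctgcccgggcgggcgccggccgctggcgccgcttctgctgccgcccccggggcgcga

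In the remaining windows the hexamer of Kifc5b began 29 bases after the start, that of Kif2c 103 bases before it and that of Kif14 228 bases before it. The windows of the paralogs Kifc1 and Kifc5b share a run of 68 bases, so their matches are not separate observations. The RefSeq starts of Kif14 and Kif2c lie 1505 and 3867 bases downstream of the 5′ ends of their GENCODE genes, so their windows may not cover the start in use. The start of Kif4 lies 328 bases downstream of its GENCODE 5′ end, beyond the upstream reach of its window, and the Kif1a window with a match lies 19471 bases downstream. The pentamer CCAAT, on either strand, was found for 8 of 12 mitotic and 3 of 10 transport kinesins. Of the detected transport kinesins with a window 3 of 7 (42.9%) held it, close to the 43.4% of detected protein-coding genes. In 0 of the 37 member windows did a CCAAT match overlap a CHR match. A match is a description of the sequence, and binding was not measured.

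**Figure D1:**
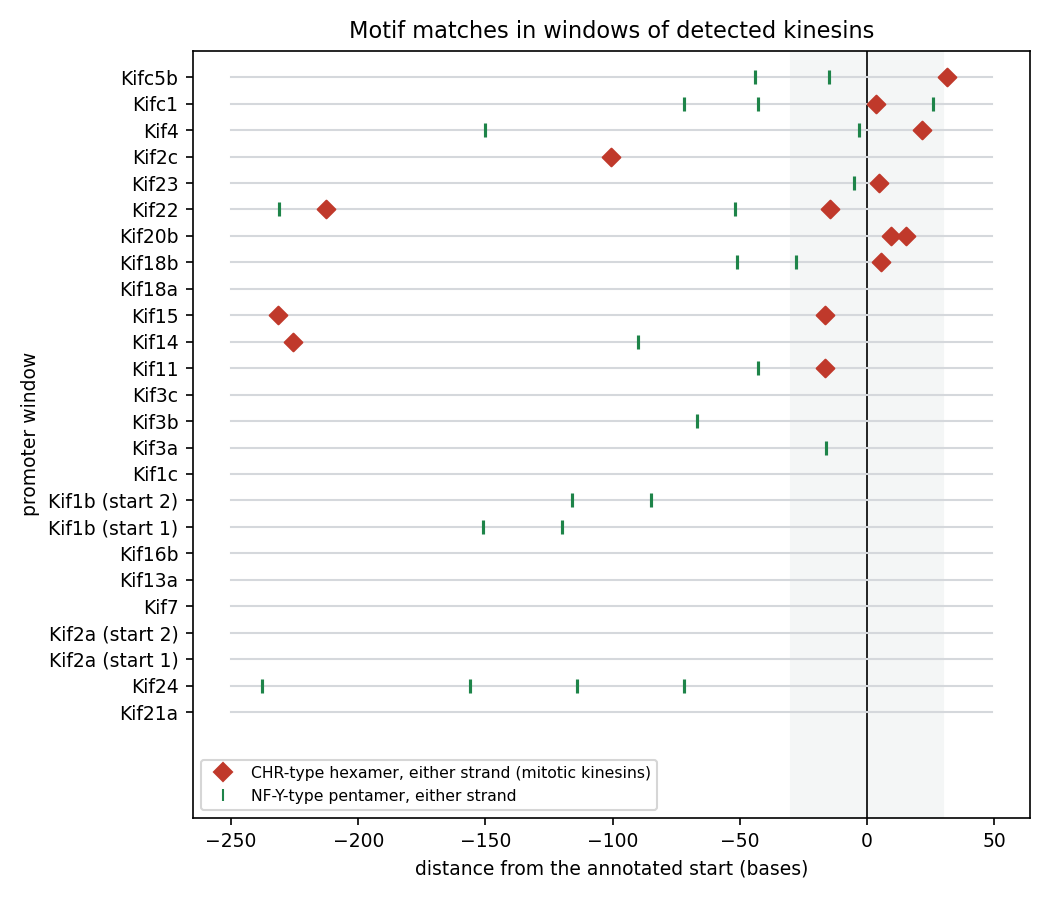
Each horizontal line is 1 promoter window of a detected kinesin, and the x axis is the distance in bases from the annotated start (0), with the shaded band marking 30 bases on either side. Diamonds are matches to TTTGAA, the only CHR form searched, and green ticks are NF-Y-type pentamers. Diamonds appear in 11 of the 12 mitotic windows and in none of the windows of the transport and other kinesins plotted.

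All 13 mitotic kinesins were detected and had higher values in co-culture. By the rule of a log2 ratio of at least 1, 6 of them were at least 2-fold higher and none lower, while 4.28% of all detected protein-coding genes were at least 2-fold higher and 1.5% at least 2-fold lower. Their median log2 ratio was 0.86, which is 0.69 above that of all detected protein-coding genes. The lowest ratio of the class, 0.56, lay above the 75th percentile of all these genes. In total, mitotic kinesin transcripts made up 220 TPM alone and 424 TPM in co-culture, a ratio of 1.93. Many members lay near the 2-fold limit: Kif20a was just inside it at 1.01, and Kif24 and Kif4 were just outside at 0.87 and 0.86. The TPM values themselves, without the pseudocount, were at least doubled for 6 mitotic kinesins and for 7.54% of all detected protein-coding genes. When the library scaling was set by the median ratio of abundant genes, 3 mitotic kinesins were at least 2-fold higher, and a TMM scaling factor left 2. The shares of all detected protein-coding genes at least 2-fold higher were then 2.97% and 2.2%.

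Among the motors that assemble the spindle, Kif11 had the largest log2 ratio, which was also the largest of the 29 detected members at a pseudocount of 1. That rank depends on the pseudocount: at 0.1 Kif20b was higher (1.578 against 1.503 for Kif11), and at 5 Kif2c was (1.06 against 1.04). Kif11, also known as Eg5, is the tetrameric motor that pushes spindle poles apart (ENSMUSG00000012443, chromosome 19 from 37376403 to 37421859 on GRCm38). It had 6.5 TPM alone and 18.6 TPM in co-culture, which is a log2 ratio of 1.39, and 1.2% of detected protein-coding genes had a ratio at least as high. Kif15 is a motor that can stand in for Kif11 in keeping the spindle bipolar, and it went from 12 TPM to 26.8 TPM (1.10). Both outward-acting motors were thus more than doubled as reported. With the TMM factor Kif11 was at 1.18 and Kif15 at 0.89, and with scaling by abundant genes they were at 1.28 and 0.99.

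Kifc1, also called HSET, is a minus-end motor that pulls against Kif11 and gathers extra centrosomes into a pair of poles, an activity for which it is known in cancer cells. It had 28.9 TPM alone and 47.6 TPM in co-culture, which is a log2 ratio of 0.70. Its mouse paralog Kifc5b had 13.6 TPM and 20.5 TPM, a ratio of 0.56, the smallest of the class. Their transcripts are close copies: 45.8% of the 50-base stretches of the longest Kifc1 transcript occur unchanged in Kifc5b transcripts, and their promoter windows share a run of 68 bases. The split of reads between both genes is therefore uncertain. Without this pair the class median was 1.01.

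Motors of chromosomes and kinetochores spanned a wide range of differences. Kif2c (MCAK), which takes microtubules apart at kinetochores and corrects wrong attachments, had 19.7 TPM alone and 46.4 TPM in co-culture. Its log2 ratio of 1.2 was the only one of the 5 in this group to reach the 2-fold limit. With the TMM factor that ratio was 0.99. The share of all detected protein-coding genes at least 2-fold higher as reported was 4.28%. The chromokinesin Kif22 (Kid), which pushes chromosome arms away from the poles, was the most abundant kinesin in the control. It had 44.2 TPM alone and 71.4 TPM in co-culture, with a ratio of 0.68. The other chromokinesin, Kif4, which acts in chromosome condensation and in the central spindle, had 6.55 TPM and 12.7 TPM (0.86). Kif4, the less abundant of the chromokinesins, had the larger ratio.

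The kinesin-8 motors, which limit the length of microtubules at their plus ends, were close to each other in ratio and far apart in level. Kif18a, which aligns chromosomes at the metaphase plate, had 2.96 TPM alone and 5.84 TPM in co-culture (0.79). Kif18b, which acts on astral microtubules, had 18.9 TPM and 32.5 TPM (0.75).

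All 4 motors of the central spindle and of cytokinesis were higher, 3 of them at least 2-fold. The shares over all detected protein-coding genes were 65.3% and 4.28%. Kif23 (MKLP1), the motor of the centralspindlin complex, had 22.5 TPM alone and 49.7 TPM in co-culture, which is a log2 ratio of 1.11. Kif20a (MKLP2), which brings Aurora B to the central spindle, had 39.9 TPM and 81.3 TPM (1.01) and was the most abundant kinesin in co-culture. Kif20b (MPP1), which acts in late cytokinesis, was the least abundant mitotic kinesin in the control, at 1.89 TPM, and had 5.84 TPM in co-culture (1.24). The 3 kinesin-6 motors were thus past the limit as reported, but not under each setting. With the TMM factor Kif20a was at 0.79 and Kif23 at 0.89, and with a pseudocount of 5 Kif20a, Kif23 and Kif20b were at 0.94, 0.99 and 0.65. Kif14, which recruits citron kinase to the midbody, had 2.54 TPM and 5.01 TPM (0.76), a ratio of the TPM values themselves of 1.97.

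**Figure D2:**
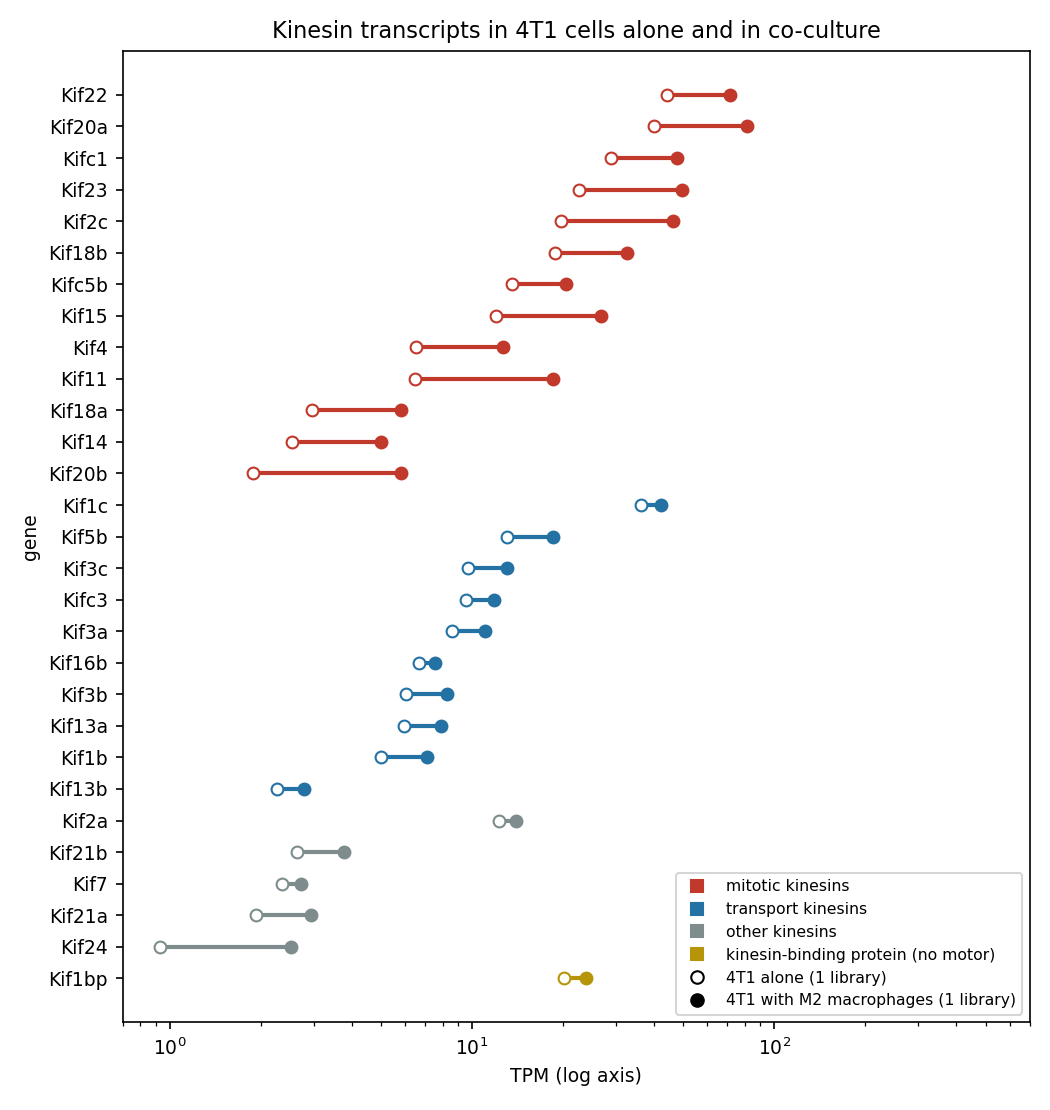
TPM of each detected kinesin on a log axis, 1 row per gene, with the open circle for 4T1 cells alone and the filled circle for 4T1 cells with M2 macrophages (1 library each). Lines between circles are longer for the 13 mitotic kinesins than for the transport kinesins, and Kif24 has a long line among the others.

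Transport kinesins were higher too, but by less. Of 15, 10 were detected, and all 10 had higher values, none of them 2-fold. Over all detected protein-coding genes 65.3% were higher and 4.28% at least 2-fold so. A count of none among 10 therefore does not set the class apart. The median log2 ratio of the transport class was 0.34, which is 0.17 above the median of all detected protein-coding genes. Of the 10, 9 lay above the median of those genes and none above their 75th percentile. The summed level of the class was 105 TPM alone and 131 TPM in co-culture, a ratio of 1.25. With trends on length and GC content of the transcripts taken out, the transport median was 0.20 beside a median of 0.17 for all genes. With the TMM factor 8 of the 10 were higher, beside a median log2 ratio of -0.031 for all detected protein-coding genes.

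Conventional kinesin (kinesin-1) was represented almost entirely by Kif5b, the ubiquitous heavy chain that carries mitochondria, lysosomes and many vesicles. Kif5b had 13.1 TPM alone and 18.5 TPM in co-culture, and its log2 ratio of 0.47 was the highest among detected transport kinesins. The neuronal heavy chain Kif5a was at 0.07 TPM in both libraries. Kif5c, the other heavy chain known from neurons, had 1.43 TPM alone and 0.11 TPM in co-culture. Its mean of 0.77 TPM lay just below the detection limit, where Kif24 was just inside at 1.73, and its log2 ratio of -1.13 was the only value past the 2-fold limit in the lower direction among all 43 members. At such levels, and without depth, this difference has no error to be set against.

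Kinesin-2 motors drive intraflagellar transport in cilia and carry vesicles and adhesion proteins. Kif3a and Kif3b, which pair in the heterotrimeric motor, had 8.60 TPM and 6.04 TPM alone and 11.1 TPM and 8.28 TPM in co-culture. Their log2 ratios of 0.33 and 0.40 were close to that of Kifap3, the non-motor subunit of the same complex (7.11 TPM and 9.72 TPM, 0.40). Kif3c, a further kinesin-2 motor, had 9.70 TPM and 13.1 TPM (0.39). The homodimeric Kif17, a motor of cilia and dendrites, was at 0.04 TPM in both libraries. The ratios of the detected kinesin-2 motors and of Kifap3 were close to each other.

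Kinesin-3 motors carry vesicles and endosomes over long distances. Kif1c, which carries vesicles that hold integrins, was the most abundant transport kinesin, with 36.4 TPM alone and 42.1 TPM in co-culture, which is a log2 ratio of 0.21. Kif1b, which carries mitochondria and synaptic vesicle precursors, had 5.01 TPM and 7.13 TPM (0.44), and Kif1a, a neuronal motor, was listed at 0 in both. Kif13a, a motor of recycling endosomes, had 5.96 TPM and 7.88 TPM (0.35). Kif13b was at 2.26 TPM and 2.78 TPM (0.21), and Kif16b, a motor of early endosomes, at 6.71 TPM and 7.58 TPM (0.15). Kif16b had the smallest ratio of the detected transport kinesins, below the median of all genes, and with the TMM factor it and Kif1c had ratios of -0.038 and -0.0082. Of the minus-end motors of this class, Kifc3, a motor of adherens junctions and the Golgi apparatus, had 9.58 TPM and 11.8 TPM (0.27), and Kifc2 had 0.03 TPM and 0.19 TPM, below detection.

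The classes as set did not overlap in log2 ratio, but they were set with earlier results of these data known. With Kif2a, which also acts at spindle poles, placed in the mitotic class, 1 mitotic ratio (0.17) lay below the highest transport ratio. The smallest log2 ratio among the 13 mitotic kinesins as set, 0.56 for Kifc5b, was above the largest among the 10 detected transport kinesins, 0.47 for Kif5b. The difference between the class medians was 0.51 on the log2 scale. The median ratio of the TPM values themselves was 1.97 in the mitotic and 1.31 in the transport class. Members are not replicates, so no test of this difference was made. Mitotic kinesins accounted for 63.7% of the summed TPM of all 42 motor genes in the control and for 73.0% in co-culture. The share of transport kinesins was 30.4% in the control and 22.5% in co-culture.

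**Figure D3:**
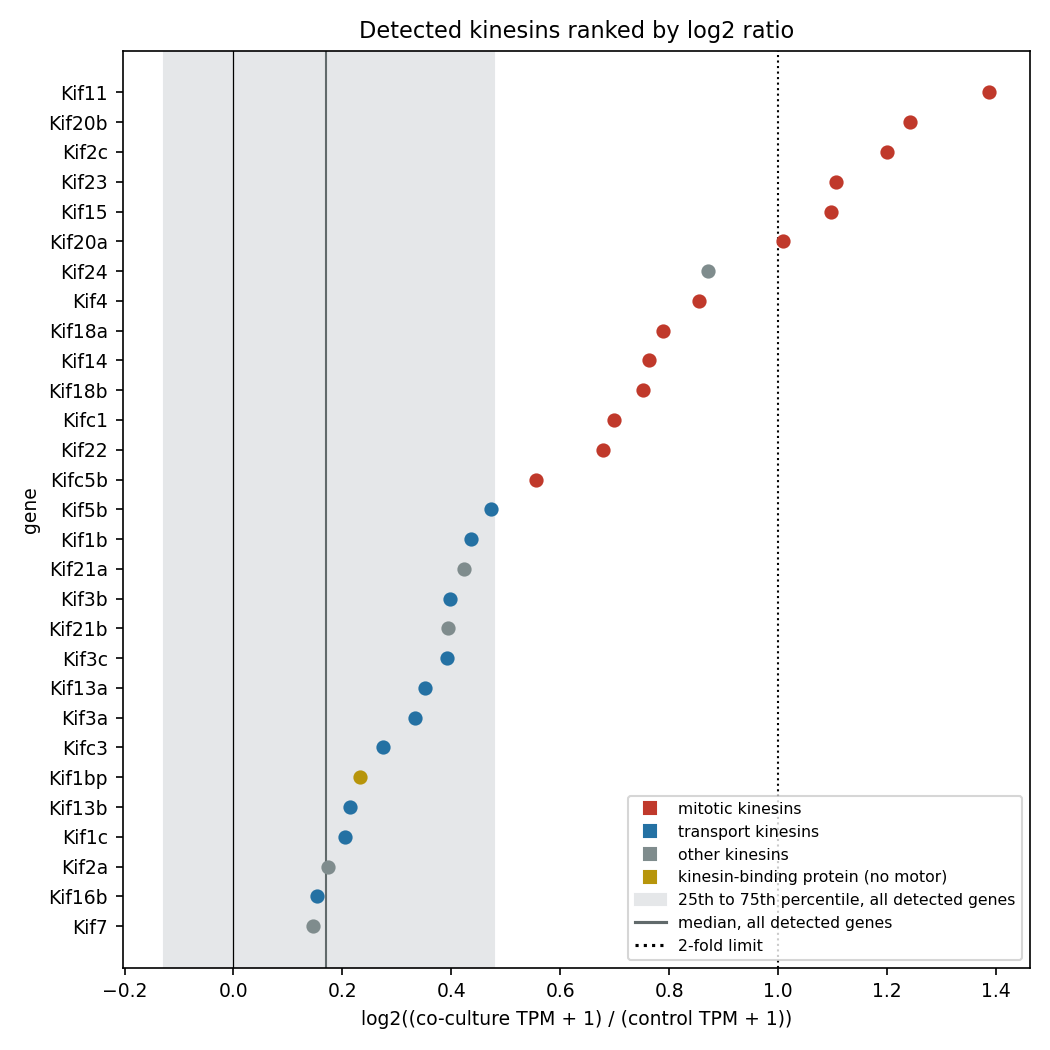
Log2 ratio of each detected kinesin, ranked, with the grey band from the 25th to the 75th percentile (-0.13 to 0.48) and the grey line at the median (0.17) of all detected protein-coding genes. All mitotic kinesins lie to the right of the band and all transport kinesins inside it.

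The classes overlapped in level. Kif1c, at 36.4 TPM, was more abundant in the control than 11 of the 13 mitotic kinesins, and Kif20b, Kif14 and Kif18a were below 3 TPM there. Across the 13 mitotic kinesins the log2 ratio had a Spearman correlation of -0.35 with control TPM, 0.32 with transcript length and -0.64 with GC content, a description over genes that share both libraries. Median transcript length was 3674 bases in the mitotic class and 6544 bases among detected transport kinesins, and median GC content was 48.1% and 50.4%. With trends on length and GC content over all detected genes taken out, the class medians were 0.84 and 0.20, and no mitotic ratio lay at or below the highest transport ratio.

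**Figure D4:**
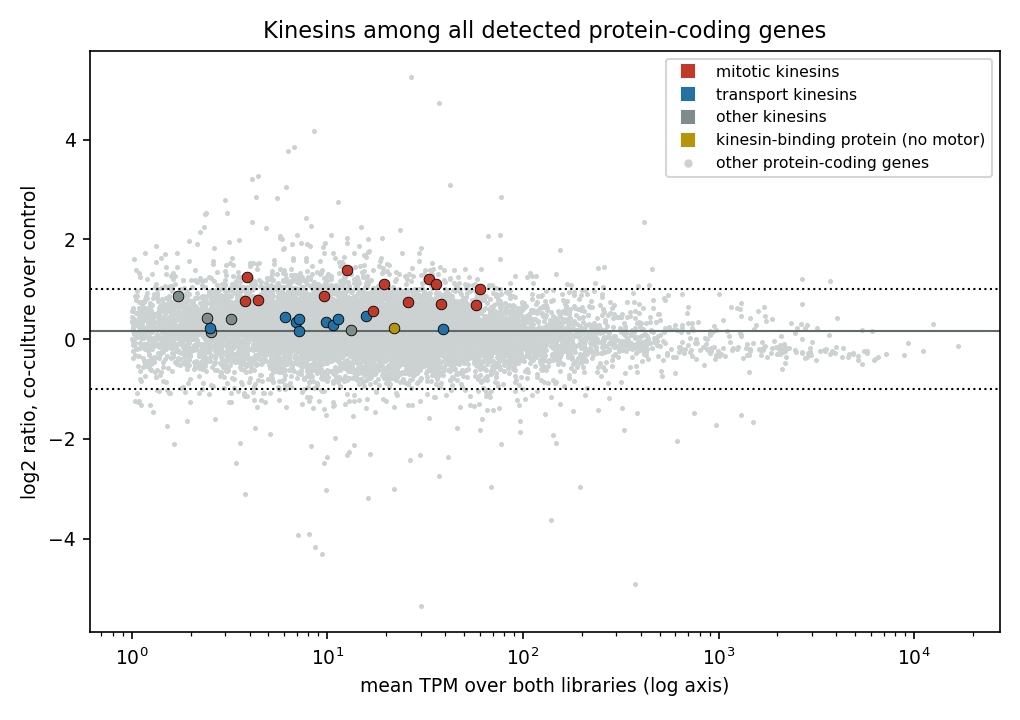
Log2 ratio against mean TPM (log axis) for all 10367 detected protein-coding genes (small grey points) and the detected kinesins (coloured), with the grey line at the median of 0.17 and dotted lines at the 2-fold limits. Mitotic kinesins sit in the upper part of the cloud over their whole range of levels. Kif11 is at 1.39, the highest at this pseudocount of 1 but not at 0.1 or 5. Of the 10 detected transport kinesins, 9 lie above the median line, and all lie below the mitotic kinesins.

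Other kinesins were mostly low. Of 14, 5 were detected, all with higher values, and none reached the 2-fold limit, beside 65.3% and 4.28% of all detected protein-coding genes. Kif24, a kinesin-13 protein that acts at centrioles and holds back the formation of cilia, had 0.93 TPM alone and 2.53 TPM in co-culture. Its log2 ratio of 0.87 was within the range of the mitotic class, and its TPM values differed 2.72-fold. At this low level the ratio depended on the pseudocount, reaching 1.35 and so passing the limit at 0.1 and falling to 0.34 at 5. Kif2a, which takes microtubules apart at spindle poles and in neurons, had 12.3 TPM and 14.03 TPM, and its ratio of 0.17 was unlike that of its relative Kif2c. Kif21a and Kif21b, which slow microtubule growth, had 1.93 TPM and 2.64 TPM alone and 2.93 TPM and 3.78 TPM in co-culture. Kif7, a regulator of Hedgehog signalling in cilia, had 2.36 TPM and 2.72 TPM (0.15). With the TMM factor the ratios of Kif7 and Kif2a were -0.010 and -0.030. The 9 undetected members of this group were Kif2b, Kif6, Kif9, Kif12, Kif19a, Kif26a, Kif26b, Kif27 and Kif28, of which Kif9 had the highest values, 0.20 TPM and 0.50 TPM. Kif1bp, whose product binds a subset of kinesins and keeps them off microtubules, had 20.2 TPM and 23.9 TPM (0.23).

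Some members overlap genes on the opposite strand, and the strandedness of the libraries is not given, so reads there cannot be assigned with certainty. Kif20a overlaps Cdc23 by 2327 bases, and Cdc23 had 23.0 TPM alone and 24.6 TPM in co-culture. Kif4 overlaps Pdzd11 by 832 bases, and that gene had 35.8 TPM and 27.5 TPM. Among the transport and other kinesins, Kif3c overlaps the antisense gene 1110002L01Rik by 2617 bases, with 3.53 TPM and 5.54 TPM for that gene, and Kif7 overlaps Ticrr by 51 bases, with 4.56 TPM and 7.75 TPM. Each of this latter pair of neighbours was higher in co-culture by a larger ratio than its kinesin.

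Genes whose products work with the mitotic kinesins were higher as well. All 16 were detected and higher, 7 past the 2-fold limit, and the median log2 ratio was 0.94, where 65.3% of all detected protein-coding genes were higher and 4.28% at least 2-fold so. Cenpe, the kinetochore motor of the kinesin-7 family that carries no Kif symbol, had the largest ratio, with 5.82 TPM alone and 21.6 TPM in co-culture (1.73), followed by Hmmr (1.31). The smallest were those of Numa1, a spindle pole protein, at 0.35, and of Racgap1, the partner of Kif23 in centralspindlin, at 0.43 (88.2 TPM and 119 TPM). Kif23 and Racgap1 thus differed in ratio although their proteins form 1 complex. Among 10 DNA replication genes, the median was 0.24 and none was 2-fold different, beside 5.78% of all detected protein-coding genes. Rrm1 (0.64) and Rrm2 (0.63) were the highest and Mcm2 (-0.07) and Mcm7 (0.16) the lowest.

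Light chains, accessory subunits and cargo adaptors of transport kinesins were mixed in direction, close to the share over all genes. Of 18, 15 were detected, 10 higher and 5 lower, none 2-fold. Over all detected protein-coding genes 65.3% were higher, 4.28% at least 2-fold higher and 1.5% at least 2-fold lower. The list had a median log2 ratio of 0.17, the same as that of all detected genes. Trak2, which links kinesin-1 to mitochondria, had the highest ratio, 0.75, and Spag9 followed at 0.63. Plekhm2, which links kinesin-1 to lysosomes, had 11.96 TPM alone and 6.83 TPM in co-culture (-0.73), and Hap1 had 11.9 TPM and 7.22 TPM (-0.65). The kinesin light chains differed in direction, with Klc1 at 43.6 TPM and 63.9 TPM (0.54) and Klc2 at 16.9 TPM and 10.6 TPM (-0.63). Cytoplasmic dynein and its cofactor dynactin, which move cargo the opposite way along microtubules, had a median of 0.13 over 21 detected genes of 24, 14 higher and 7 lower, none 2-fold. Dctn5 and Bicd2 were highest there (0.61 and 0.56), and Dctn4 and Actr10 lowest (-0.34 and -0.27).

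Tubulin genes, whose products form the tracks, lay between these groups. All 9 detected of 11 were higher, 3 at least 2-fold, beside 65.3% and 4.28% of all detected protein-coding genes. Their median log2 ratio was 0.64. Tuba1c had 138 TPM alone and 380 TPM in co-culture (1.45) and Tubb6 had 107 TPM and 231 TPM (1.10). The smallest ratios were those of Tubb5, at 1110 TPM and 1150 TPM (0.05), and Tubg1 (0.13). Tubulin genes are close copies of each other, so their separate values are uncertain.

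**Figure D5:**
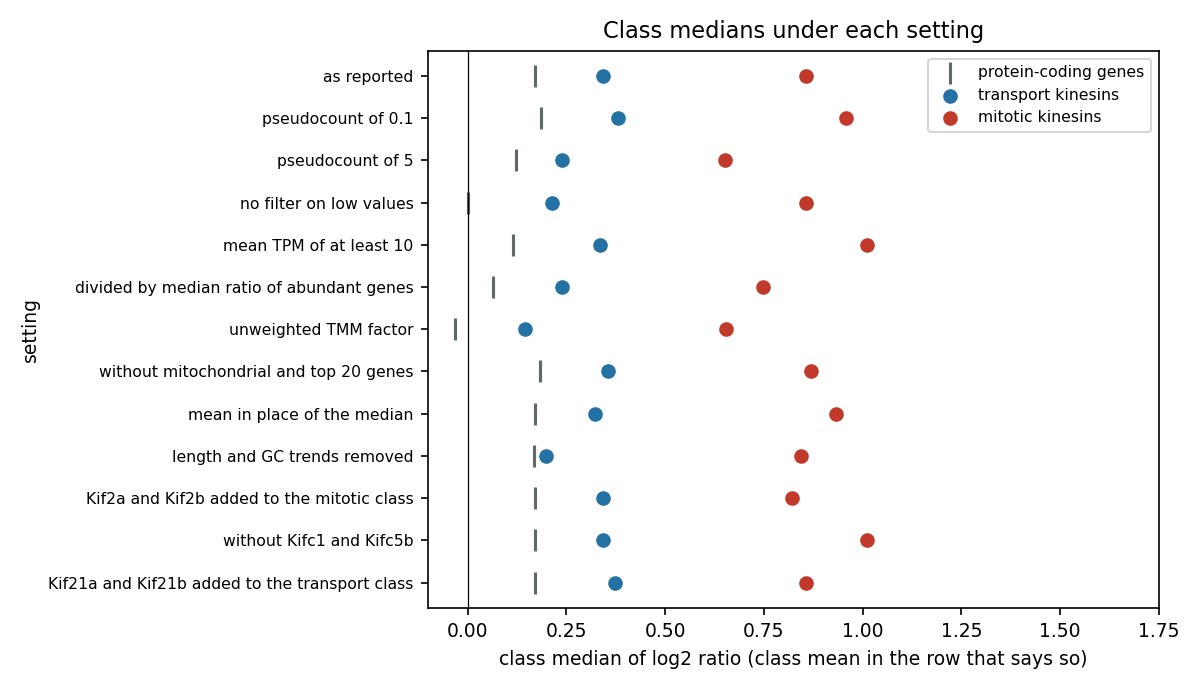
Median log2 ratio of the mitotic kinesins (red), the transport kinesins (blue) and the protein-coding genes kept by the setting (grey ticks, always the median), under the reported setting and each alternative in turn. The mitotic median lies between 0.65 and 1.01 and stays to the right of the transport median, which lies between 0.15 and 0.38.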

How the data were processed

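RNA of 4T1 cells was sequenced in 2 libraries, 1 per group, and groups were taken from the treatment labels. The authors deposited 1 table of TPM values, rounded to 2 decimals. Per the submitters' processing notes, HISAT2 2.1.0, RSEM 1.2.31 and build GRCm38.p5 were used, without stated roles; the sources used here give no annotation, strandedness or filter. RSEM splits reads that fit several genes, which makes paralog values uncertain. Depth cannot be read from TPM.

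Ensembl identifiers were matched to GENCODE M21 (GRCm38) for symbols, biotypes, 1-based positions and the longest transcript. Log2 ratios used a pseudocount of 1 and detection a mean TPM of at least 1. The background was all detected protein-coding genes. The members, classes and gene lists were chosen with earlier results of these data known. Every detected kinesin is named; of other lists, the detected genes with the 2 largest and 2 smallest ratios, with further genes chosen after their values were seen. Alternatives were 14: pseudocounts, filters, scalings, a higher threshold, the mean, lowess trends (span 0.3) and class membership. A value counted as moved when it differed by over 1.5 times. Scaling and threshold steps were tested on simulated data with planted differences larger than those of any kinesin. Recovery was scored for abundant genes only, so calls near the 2-fold limit or at low levels were not tested. Motif searches read both strands of RefSeq windows. Analyses used Python 3.11.15, pandas 2.3.3 and statsmodels 0.14.6.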

Additional observations from a re-analysis of the deposited data

How the results depend on the processing

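All 13 mitotic kinesins kept positive ratios in every alternative that retained them, and no mitotic ratio lay at or below the highest transport ratio except that of Kif2a when it was added to the mitotic class. The difference between class medians stayed within 1.5 times of 0.51 in each. Of the mitotic kinesins, 6 were at least 2-fold higher as reported. The count was 2 with a pseudocount of 5 and 3 when scaled by abundant genes. It was 2 with the TMM factor and 0 at a log2 threshold of 2. The share of all detected protein-coding genes past the same upper limit, 4.28% as reported, was 1.43%, 2.97%, 2.2% and 0.347% in that order. Kif24, 0.87 as reported, was 1.35 and 0.34 with pseudocounts of 0.1 and 5, and Kif20b, 1.24 as reported, was 0.65 with 5. The transport median was 0.21 without a filter, 0.15 with the TMM factor and 0.20 after length and GC trends were removed. With a mean TPM of at least 10, all 15 members kept were higher, beside a median log2 ratio of 0.11 for all protein-coding genes kept. At the reported filter 65.3% of all detected protein-coding genes were higher. The share of all genes at least 2-fold different, 5.78% as reported, was 9.07% and 2.19% with pseudocounts of 0.1 and 5, 2.83% without a filter and 0.637% at a log2 threshold of 2. With the TMM factor, which lowered co-culture values by 0.22 on the log2 scale, the medians were -0.040 for the adaptor list, -0.089 for dynein and dynactin, 0.43 for tubulins and 0.026 for DNA replication genes, and the ratios of Kif1c, Kif2a, Kif16b and Kif7 were -0.0082, -0.030, -0.038 and -0.010. Scaling by abundant genes, a shift of 0.12, put these lists at 0.059, 0.012 and 0.13 for adaptors, dynein and DNA replication, and the adaptor median was 0.080 without a filter. The alternatives for these lists were added after the data were seen. These scalings subtract a near-constant, which lowers every ratio; the cause of the other moves was not tested. No paired analysis was possible because each group has 1 library.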

Other observations

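Across all 8244 detected protein-coding genes with a promoter window, 193 held the CHR hexamer within 30 bases of the start. Their median log2 ratio was 0.38, against 0.16 for the 8051 genes without it, and 9.84% against 3.68% were at least 2-fold higher. With the kinesins left out the values were 0.35 and 8.11% over 185 genes. Over the whole window the contrast was smaller, at 0.19 for 1144 genes with the hexamer and 0.16 for 7100 without it. The 30-base limit was set after the kinesin matches were seen, and no test was made. Rows outside the members that carry a Kif name and are not protein-coding were the antisense RNA Kif16bos, listed at 0 alone and at 0.21 TPM in co-culture, and the pseudogenes Kif4-ps, Kif22-ps and Kifc5c-ps, all listed at 0 in both libraries.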
